A study of Rattus norvegicus with 36 samples.

Results

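Of the 947 rows in a rat small RNA count table, 116 were assigned by the authors to mature miRNAs of other species rather than to known rat miRNAs, which filled 458 rows, or to new loci, which filled 373 rows. These 116 homolog rows were taken by that class alone. The rule used none of their values, though it was set with earlier results of these data known. One of them carries a rat name, rno-miR-486-5p, a red-cell miRNA that made up most of every blood library. The deposited counts class it as a homolog, whereas the paper's list of abundant miRNAs classes it as a mature rat miRNA. The 115 rows with names of other species are therefore described below, and miR-486-5p is given only as their surroundings. Among the 115 rows, 45 had mouse names (prefix mmu), 27 human names (hsa) and 17 cattle names (bta), and 24 species prefixes occurred in all. By kind, 98 rows had mammalian names, 6 names of other vertebrates, 4 of insects, 3 of other invertebrates, 3 of viruses and 1 of a plant. A row with one name was the rule (99 rows), and the other 16 rows joined several names, up to 15.

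The libraries came from lung and from whole blood, drawn from the heart, of female WAG/RijCmcr rats that were 9 to 10 weeks old at irradiation. In the irradiated rats the whole thorax was exposed to X-rays at 15 Gy, a field that took in the lungs, the heart and some of the liver, and tissue was taken 1, 2, 3 or 4 weeks later. Controls of the same age, at 0 Gy, were taken at 1 and 4 weeks. Each of the 6 groups had 3 libraries per tissue, 36 libraries in all, and by the study's methods each library pooled RNA of 3 rats, so the spread between libraries is that between pools.

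A mature miRNA is a strand of about 22 bases cut from a hairpin precursor. Bases 2 to 8, the seed, pair with target mRNAs, and miRNAs with the same seed form a family. Many families are conserved between mammals, and one conserved miRNA can be catalogued under different numbers in different species. A hairpin can also be transcribed from the opposite strand of the genome, and some catalogue entries, such as miR-103b, miR-451b and miR-3184, are known as opposite-strand entries of miR-103, miR-451 and miR-423. Other catalogue entries resemble fragments of ribosomal, transfer or small nucleolar RNA or of short interspersed repeats.

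Several of the homolog rows that carried most of the counts ran in step with a known rat miRNA. The mature sequences of those rat miRNAs are shown first because the results turn on them. rno-miR-26b-5p is in none of the close pairs given below and is shown beside rno-miR-26a-5p for comparison. The sequences are taken from RefSeq (GRCr8) and written 5′ to 3′ with the seed in capitals. The sequences of the other species' entries were not used here.
rno-miR-26a-5p: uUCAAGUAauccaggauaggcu
rno-miR-26b-5p: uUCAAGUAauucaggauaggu
rno-miR-22-3p: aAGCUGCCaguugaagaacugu
rno-let-7b-5p: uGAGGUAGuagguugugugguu
rno-miR-423-5p: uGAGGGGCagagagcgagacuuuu
rno-miR-103-3p: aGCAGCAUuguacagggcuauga
rno-miR-451-3p: aUGGUAAUgguucucuugcugcu
rno-miR-28-3p: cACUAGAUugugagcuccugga
rno-miR-199a-3p: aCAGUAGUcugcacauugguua

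These 9 miRNAs hold 8 different seeds, since miR-26a-5p and miR-26b-5p share one. Counted from 1 at the 5′ end, miR-26b-5p differs from miR-26a-5p by C11U and C21U and is 1 base shorter, 21 against 22 bases. In GRCr8, miR-26a-5p lies at chr8:127633063-127633084 on the plus strand, within the span of Ctdspl. miR-22-3p lies at chr10:60805387-60805408 (plus) and let-7b-5p at chr7:118684044-118684065 (plus). miR-423-5p lies at chr10:62412317-62412340 (minus) within Nsrp1, and miR-103-3p at chr3:138963278-138963300 (plus) within Pank2. miR-451-3p lies at chr10:63459612-63459634 (plus). miR-28-3p lies at chr11:89480263-89480284 (minus) within Lpp, and miR-199a-3p at chr13:77116294-77116315 (plus) within Dnm3.

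A second set shows what an opposite-strand pair looks like, and which conserved rat sequences had no rat row in the table although RefSeq lists them.
rno-let-7a-5p: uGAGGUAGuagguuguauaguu
rno-miR-3596a: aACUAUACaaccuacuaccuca
rno-let-7g-5p: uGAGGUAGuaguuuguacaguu
rno-miR-148a-3p: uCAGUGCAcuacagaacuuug
rno-miR-148b-3p: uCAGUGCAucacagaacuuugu
rno-miR-155-5p: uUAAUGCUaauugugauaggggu

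rno-miR-3596a is complementary to let-7a-5p over all 22 of its 22 bases, and both map to chr8:50805219-50805240, on the minus and plus strand. The same seed is held by let-7a-5p, let-7g-5p and let-7b-5p, and another by miR-148a-3p and miR-148b-3p. In all, 8 homolog rows had a rat miRNA of the same number and arm in RefSeq, namely dre-miR-125a, hsa-miR-148a-3p, hsa-miR-148a-5p, mmu-let-7g-5p, mmu-miR-1247-5p, mmu-miR-149-5p, mmu-miR-155-5p and mmu-miR-709. Of these, 1 (miR-125a) also had a rat row in the count table.

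Library depth set what could be seen. Blood libraries held 1156407 to 2340177 counts, of which miR-486-5p took 83.3 to 95.9%, leaving 70470 to 315003 counts. Lung libraries held 8132 to 3807051 counts, and 2 of them, 0 Gy 1 week replicate 3 and 15 Gy 3 weeks replicate 3, had only 11621 and 8132. The libraries matched their tissue labels. The 5 red-cell miRNAs made up 86.2 to 96.1% of blood counts and 0.997 to 48.5% of lung counts, the highest value being that of the lung library with 8132 counts. The 4 leukocyte miRNAs made up 0.00623 to 0.113% of blood counts and 0.0716 to 0.250% of lung counts, and the 7 lung tissue miRNAs 0.0108 to 0.0194% of blood counts and 5.46 to 18.7% of lung counts. The blood columns for 0 Gy 1 week replicate 1 and 15 Gy 1 week replicate 2 carry each other's library number in a listing of the study, and results were also computed without them.

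A few homolog rows carried nearly all of the homolog counts. In blood, bta-miR-26c, a cattle name with the number of miR-26, held 63.7% of the 281544 homolog counts. The 10 most abundant rows held 94.4%. In lung, bta-miR-26c held 45.8% of 1078103 homolog counts, bta-miR-3600 24.5% and bta-miR-2340 13.9%, and the 10 most abundant rows held 95.8%. Among all 947 rows of the table bta-miR-26c ranked 6 in unirradiated blood and 7 in unirradiated lung by mean count. Mature miRNAs are of nearly one length, so counts are compared between rows here without a length correction.

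In the 6 unirradiated blood libraries bta-miR-26c had 8673 ± 4636 counts (mean ± SD, n = 6, range 2015 to 14851). bta-miR-3596 followed with 1086 ± 513 counts, and hsa-miR-148a-3p, the major arm of a conserved precursor, with 794 ± 435. bta-miR-3600 had 686 ± 239 counts. These 3 rows overlapped in range, so their order is not set beyond the spread. hsa-miR-3184-3p (436 ± 259 counts) and hsa-miR-103b (434 ± 131) were nearly level. The rest of the leading 10 in blood were cgr-miR-1285 (230 ± 170 counts), bta-miR-2340 (209 ± 99.2), hsa-miR-3184-5p (199.8 ± 95.03) and bta-miR-2487 (192 ± 140).

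In the 6 unirradiated lung libraries the SD of the counts was above the mean for bta-miR-26c and bta-miR-3600 and below it for the other 8 leading rows, and the depth of these libraries ranged from 11621 to 3807051. bta-miR-26c had 41087 ± 42093 counts (n = 6), bta-miR-3600 18827 ± 19520 and bta-miR-2340 11037 ± 10053. ppy-miR-151b had 2623 ± 1894 counts, hsa-miR-148a-3p 2551 ± 2125 and bta-miR-3604 1692 ± 1668. The last of the leading 10 were bta-miR-3596 (992 ± 771 counts), hsa-miR-3184-3p (696 ± 583), hsa-miR-103b (484 ± 368) and bta-miR-2898 (402 ± 339). Of these 10 rows, 7 were also among the leading 10 of blood.

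**Figure D1:**
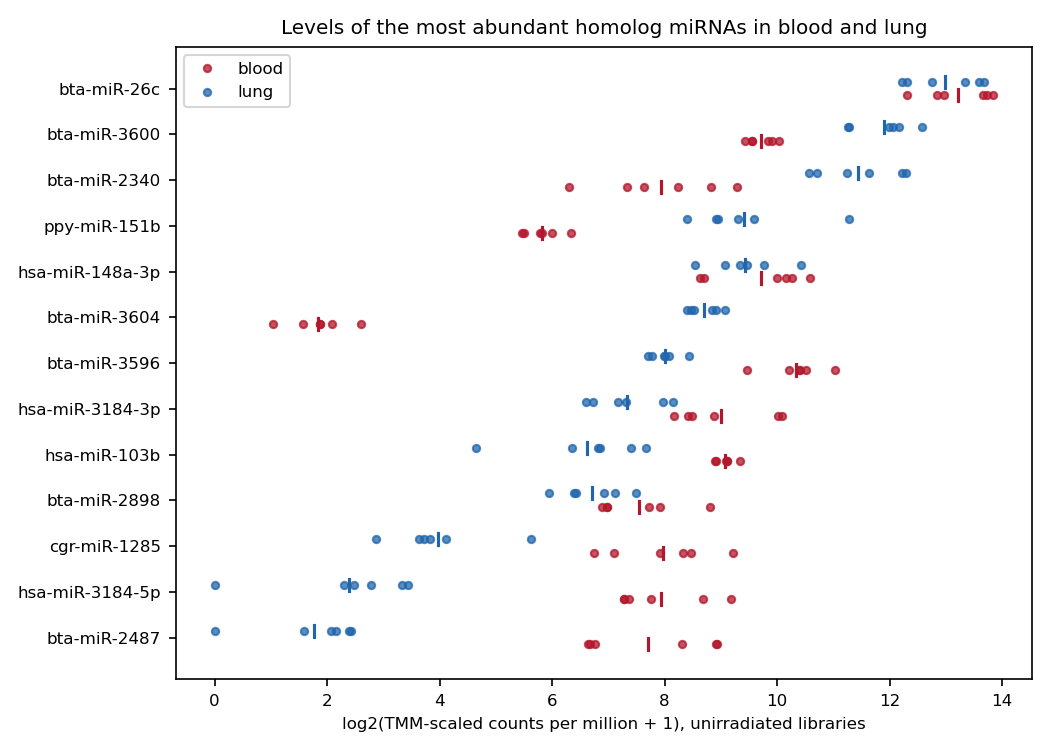
Levels of the leading homolog rows in the 6 unirradiated libraries of blood (red) and of lung (blue), as log2(CPM + 1), where CPM is the scaled count relative to library size, on the horizontal axis, each point a library and each tick the mean. bta-miR-26c overlapped between the tissues, bta-miR-3604 stood apart at 1.06 to 5.06 CPM in blood against 338 to 539 in lung, and bta-miR-2487 stood apart the other way.

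By kind of name, mammalian entries held 99.9% of the homolog counts in blood and 99.5% in lung. The list of 28 conserved relatives held 71.8% of homolog counts in blood and 52.7% in lung. Most of it was bta-miR-26c, which was placed there by its name. The 8 names listed as opposite-strand held 7.73% in blood and 1.71% in lung. The lists were made by name. bta-miR-26c (63.7% in blood, 45.8% in lung), bta-miR-3600 (24.5% in lung) and bta-miR-3596 (6.27% in blood) were not in the opposite-strand list. Their strand was not looked up, so the part of opposite-strand entries may be larger. bta-miR-3596 shares its number with rno-miR-3596a. The 20 names related to ribosomal, transfer or small nucleolar RNA or repeats held 3.16% and 1.15%. The 10 names of invertebrates, a plant and viruses other than dme-miR-10-3p, which is counted here with the conserved relatives, held 0.0696% in blood and 0.300% in lung. The plant name, ath-miR5658, had 0 counts in all blood libraries and 2 counts in all lung libraries together.

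Detection followed depth. With at least 1 count, 102 of the 115 rows appeared in some blood library and 112 in some lung library, 10 appeared in lung alone and 0 in blood alone, and 3 rows (gga-miR-124c-5p, mmu-miR-3059-5p and mmu-miR-6540-3p) appeared in neither. With at least 3 counts the numbers were 75 and 100, with 28 rows in lung alone, 3 in blood alone and 12 in neither. Rows present in all 18 blood libraries numbered 33, and rows present in all 18 lung libraries, the 2 shallow ones included, 18. A blood library detected 57 to 79 rows (median 66), and a lung library of ordinary depth 75 to 105 (median 95, n = 16).

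The higher number in lung was not present at equal depth. When each library was brought to 70470 counts without miR-486-5p, by calculation of the expected number, a blood library held 50.8 homolog rows in the median (46.9 to 65) and a lung library 48.7 (37.8 to 54.0). For every 100 known rat miRNAs expected at that depth, blood held a median of 26.2 homolog rows (24.0 to 33.2) and lung 22.0 (19.5 to 25.04), so the ranges of the tissues overlapped. Only 25 rows reached a mean of 10 counts in blood and 49 in lung. The ratios between rows and the spread within groups given next rest on those, while the tests between groups also took in rows with fewer counts, whose counts are given.

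Several of the leading homolog rows followed one known rat miRNA from library to library. Closeness was measured as the SD, over libraries, of the log2 ratio of the counts plus 1 of both rows, over the 18 blood libraries and the 16 lung libraries of ordinary depth. The libraries share depth and tissue composition, so this is a description and carries no test. bta-miR-26c had 2015 to 17237 counts in blood against 1851 to 15439 for rno-miR-26a-5p, and the ratio stayed between 1.09 and 1.13 (SD of log2 ratio 0.0165). In lung the ratio of the same pair was 1.09 to 1.16 (SD 0.0269) while the counts of bta-miR-26c ranged from 4972 to 117002.

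bta-miR-3600 followed rno-miR-22-3p as closely. The ratio was 1.13 to 1.21 in blood (SD of log2 ratio 0.0258, 296 to 1582 counts) and 1.16 to 1.21 in lung (SD 0.0157, 2812 to 54882 counts). bta-miR-3604 followed rno-miR-199a-3p in lung at a ratio of 1.16 to 1.28 (SD 0.0430), whereas in blood both rows had at most 4 counts in a library and no ratio can be read. In these 3 pairs the cattle name had somewhat more counts than the rat name.

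In 2 other pairs the ratio was steady within each tissue but not the same in both. bta-miR-3596 stood at a median of 0.941 times rno-let-7b-5p in blood (SD of log2 ratio 0.0455) and at 0.619 times in lung (SD 0.0750), and the ranges of the ratio, 0.892 to 1.01 and 0.549 to 0.681, did not overlap. hsa-miR-103b stood at 1.38 times rno-miR-103-3p in blood (SD 0.0595) and at 1.09 times in lung (SD 0.0999), with ranges of 1.29 to 1.48 and 1.04 to 1.29. The ratios of 2 further pairs overlapped between the tissues. hsa-miR-3184-3p stood at 1.06 times rno-miR-423-5p in blood (SD 0.0562) and at 0.916 times in lung (SD 0.0821), with ranges of 0.969 to 1.12 and 0.801 to 1.01. ppy-miR-151b stood at 0.568 times rno-miR-28-3p in blood (SD 0.151) and 0.538 times in lung (SD 0.0742), with ranges of 0.491 to 0.667 and 0.469 to 0.569 and with 17 to 66 counts in a blood library.

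mmu-miR-451b followed rno-miR-451-3p in blood with a median ratio of 0.968 (SD of log2 ratio 0.146, 10 to 60 counts), and lung libraries held at most 5 counts of either row. For the opposite-strand names (miR-103b, miR-3184-3p and miR-451b) the strand setting of the mapping is not given in the sources used here, and without it reads of a miRNA and of its opposite-strand partner cannot be told apart.

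**Figure D2:**
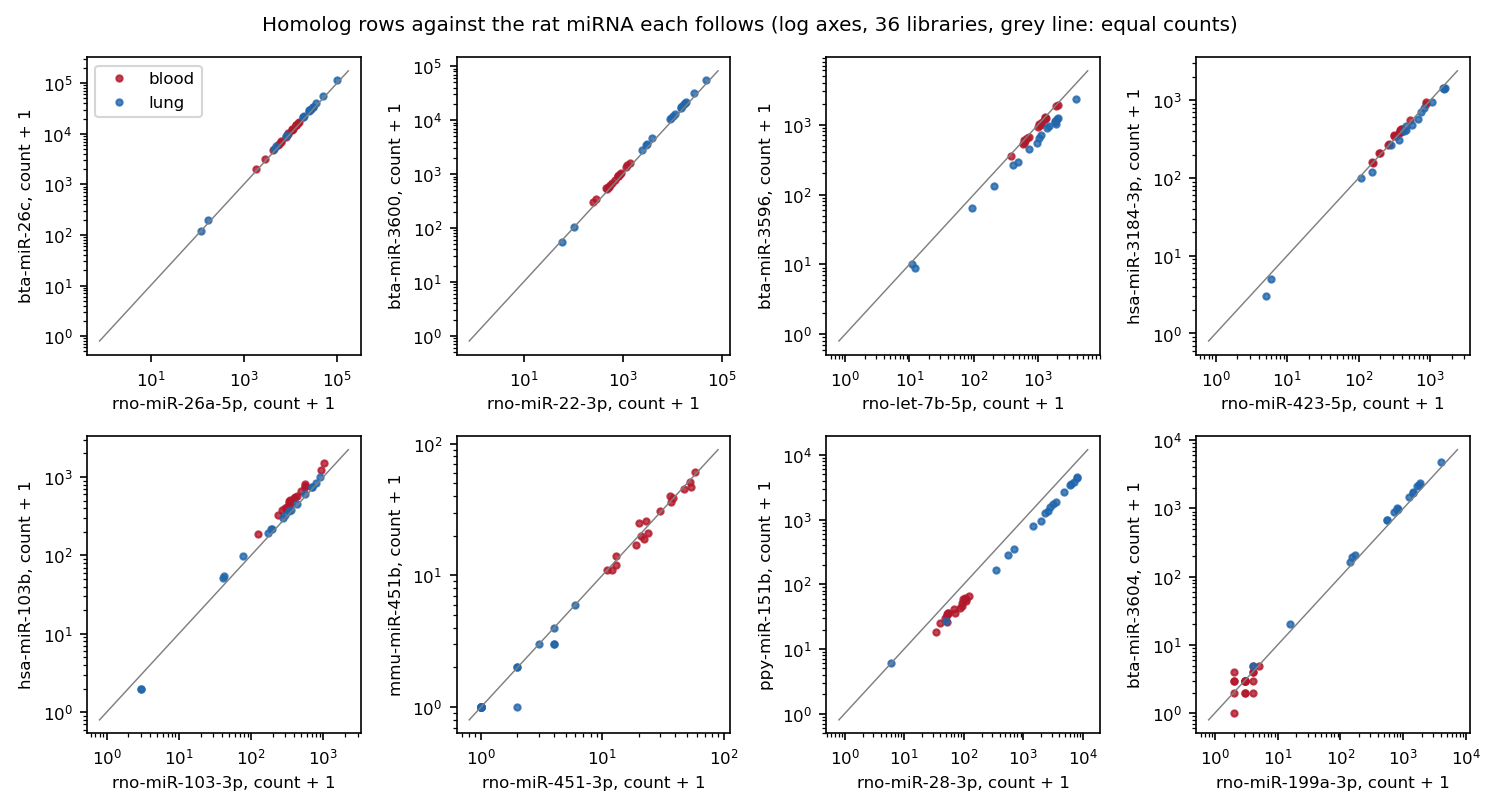
Counts plus 1 of a homolog row (vertical) against the rat miRNA it followed (horizontal) on log axes in 8 panels, with each point one of the 36 libraries, blood in red and lung in blue, and a grey line at equal counts. The points of bta-miR-26c and bta-miR-3600 lie along a line just above equality in both tissues, and those of bta-miR-3596 in lung lie lower than those in blood.

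With an SD of the log2 ratio under 0.2, a limit set after the values were seen, 7 of the 25 rows in blood (28%) and 7 of the 49 in lung (14.3%) had a close rat miRNA. hsa-miR-148a-3p and bta-miR-2340, among the leading 10 rows of both tissues, had none in either tissue. Known rat miRNAs, each set against the other rat miRNAs in the same way, were under that limit for 13 of 124 rows in blood (10.5%) and 29 of 219 in lung (13.2%). The median homolog row was less closely followed than the median rat row, with an SD of 0.398 against 0.327 in blood and 0.501 against 0.315 in lung. In blood the share of close homolog rows was thus above that of rat rows, and in lung it was near theirs. The tightest pair of a homolog row was closer than the tightest among rat rows. Its SD was 0.0165 against 0.0319 in blood and 0.0157 against 0.0240 in lung. The classes were not matched for count level, and the part of count level in these figures was not tested. The 7 close pairs of each tissue kept their partner with a pseudocount of 0.5, and those of lung kept it with the shallow libraries included.

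**Figure D3:**
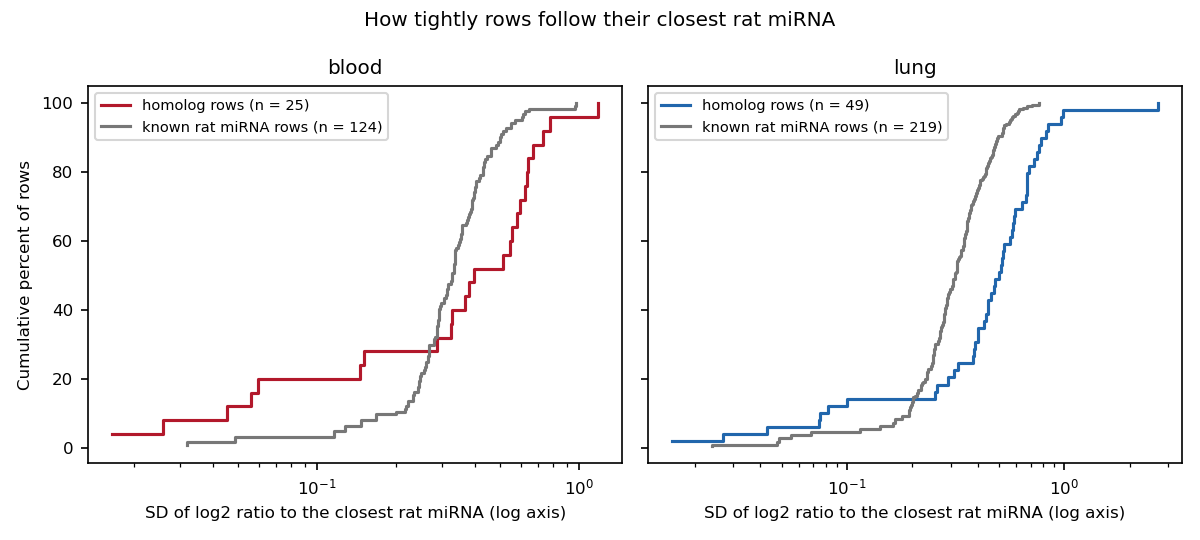
Cumulative percent of rows (vertical) by the SD of the log2 ratio to the closest rat miRNA (horizontal, log axis) for homolog rows (colour) and known rat miRNA rows (grey) with a mean of at least 10 counts in blood and in lung. The homolog curve starts further left than the rat curve and ends further right in both tissues, with medians of 0.398 against 0.327 in blood and 0.501 against 0.315 in lung.

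Known rat miRNAs formed 19 such close pairs among themselves, and 7 of these pairs were on opposite strands of one place in GRCr8, let-7d with miR-3596b and miR-125b-5p with miR-3588 among them. Another 10 pairs lay at different places and 2 had a member with no RefSeq entry. The table held 29 rat pairs on opposite strands. Of these, 8 reached a mean of 10 counts in blood and 4 of them had an SD under 0.2, and 14 did in lung with 5 under 0.2.

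Homolog rows also ran in step with rows that the authors had called as new loci. bta-miR-3600 followed a new locus on chromosome 10 with an SD of the log2 ratio of 0.00767 in blood and 0.00311 in lung and a median ratio of 1.01 in each, closer than to rno-miR-22-3p. bta-miR-26c followed one on chromosome 8 (SD 0.0113 and ratio 0.947 in blood), and hsa-miR-103b one on chromosome 10 (SD 0.0152 in blood and 0.0180 in lung). In lung, ppy-miR-151b followed one on chromosome 11 (SD 0.00403, ratio 0.992) and bta-miR-3604 one on chromosome 13 (SD 0.0397, ratio 0.909). eca-miR-1271 had no close rat miRNA and followed a new locus on chromosome 17 (SD 0.116 in blood and 0.0713 in lung). Chromosomes are those of the authors' build, rn4. In all, 4 rows in blood and 6 in lung had a new locus under the limit of 0.2.

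Between homolog rows, cgr-miR-1285 and hsa-miR-1303, both names related to repeats, ran together in blood at a ratio of 1.71 (SD of log2 ratio 0.138) and less closely in lung (SD 0.369). In lung hsa-miR-574-3p and bta-miR-669 ran together at a ratio of 1.31 (SD 0.0594).

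In the median, homolog rows varied more between libraries of one group than known rat miRNAs did. The classes were not matched for count level, and counting error is larger in rows with few counts. The part of count level was not tested. The SD of log2(CPM + 1) within groups, with CPM scaled by TMM, had a median of 0.643 for homolog rows against 0.501 for rat rows in blood and of 0.718 against 0.504 in lung. hsa-miR-3168 in lung was the most variable row at 3.496, and bta-miR-3600 in blood the least at 0.242.

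The first comparison asked how unirradiated lung and blood differ. As a share of all counts, the 115 rows took 0.651 ± 0.216% in blood (n = 6, range 0.302 to 0.946%) and 5.01 ± 1.72% in lung (n = 6, range 1.66 to 6.25%), a difference of 2.91 on the log2 scale (two-sided exact permutation test, p = 0.00216, the smallest this design gives). With miR-486-5p left out of the total the order turned, with 6.88 to 8.59% in blood against 1.73 to 6.29% in lung (log2 difference -0.71, exact permutation p = 0.00216). The direction of the share therefore depended on whether that one red-cell miRNA was counted.

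Row by row, edgeR's quasi-likelihood test with Benjamini-Hochberg adjustment tested 72 homolog rows among 576 rows. It called 50 of the 72 (69.4%), 28 higher in lung and 22 higher in blood, where 75% of all 576 rows were called, 49.7% higher and 25.3% lower in lung. The share called among homolog rows was thus near that of all rows. DESeq2 called 44 of the 72, 16 higher and 28 lower, and 69.8% of all rows. The median log2 fold change, lung over blood, was 0.24 for the homolog rows and 1.85 for all rows, so 25 of the 72 lay above the median of all rows and 47 below. With RLE size factors the split was 22 higher and 28 lower, with library totals 54 and 9, and without miR-486-5p 12 and 22 of 48 tested. All 28 rows called higher in lung kept that direction under each scaling that tested them, called there or not. Of the 22 called lower, 11 kept theirs. The other 11, among them bta-miR-3596, hsa-miR-103b, hsa-miR-3184-3p, mmu-miR-744-5p and bta-miR-2898, turned with library totals. In whole tissue, fewer cells of a type and less RNA per cell cannot be told apart. The red-cell miRNAs took 90.4 to 96.1% of counts in these blood libraries and 0.997 to 5.88% in these lung libraries, and their part in the differences was not tested.

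Higher in lung by the largest amounts were rows near 0 in blood. cin-miR-3575-5p, a sea squirt name, had 0 counts in the 6 blood libraries and 647 in the 6 lung libraries, at least 44.4-fold higher when blood is set at 3 counts over the group. On the same footing bta-miR-3601 (223 counts in lung) was at least 15.3-fold higher, hsa-miR-16-2-3p (114 counts) at least 7.81-fold and mmu-miR-149-5p (81 counts) at least 5.55-fold. bta-miR-3604 had 1.06 to 5.06 CPM in blood (median 2.65) and 338 to 539 in lung (median 413), a log2 fold change of 7.28 ± 0.46 (SE, adjusted p = 3.27e-13), beside 6.88 for rno-miR-199a-3p, the miRNA it followed. hsa-miR-574-3p had 0 to 2.64 CPM in blood and 36.5 to 145 in lung (6.27 ± 0.64). Neither row overlapped between the tissues.

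Higher in blood by the largest amounts was mmu-miR-451b, with 19.05 to 42.3 CPM in blood (median 29.3) and 0 to 0.603 in lung, a log2 fold change of -7.55 ± 0.84 (adjusted p = 1.94e-08). The erythroid miRNA it followed, rno-miR-451-3p, had -6.78. bta-miR-2487 had 98.5 to 485 CPM in blood and 0 to 4.35 in lung (-6.27 ± 0.59), mmu-miR-466i-5p 12.7 to 78.1 and 0 to 1.21 (-6.11 ± 0.70) and hsa-miR-3184-5p 154 to 580 and 0 to 9.80 (-5.59 ± 0.45). hsa-miR-486-3p, the minor arm of the red-cell miR-486 precursor, had 29.6 to 438 CPM in blood and 0 to 7.23 in lung (-5.51 ± 0.78), beside -7.83 for rno-miR-486-5p. All 5 rows kept their direction under each scaling that tested them. Over the 72 rows, 11 had every lung library above every blood library, 15 had every one below and 46 overlapped.

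**Figure D4:**
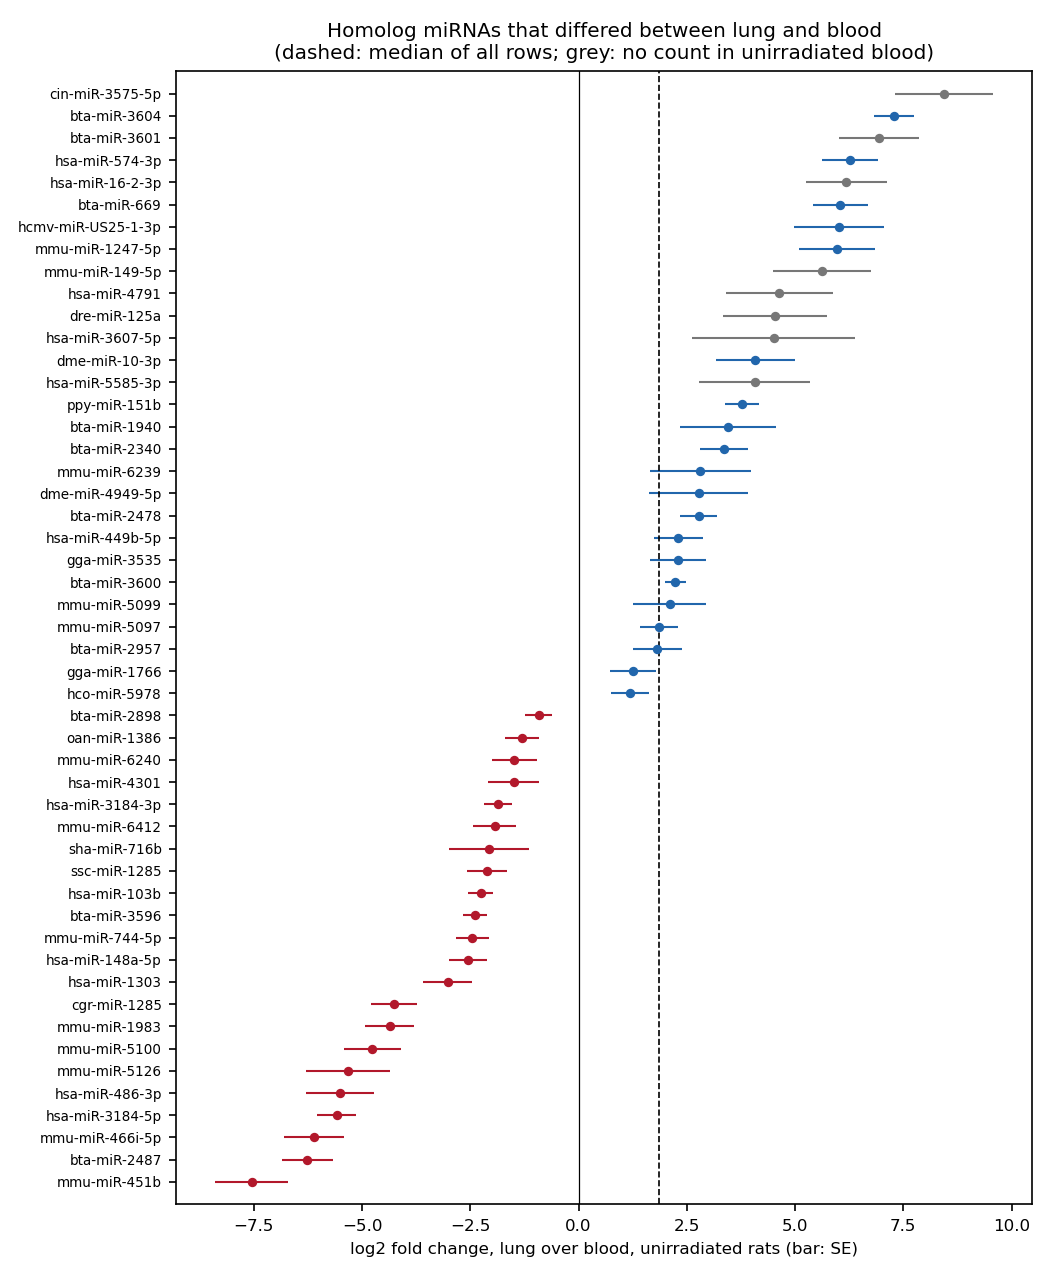
Log2 fold change of lung over blood in unirradiated rats (horizontal, bars are the SE) for the 50 homolog rows called by edgeR, with 28 to the right of 0 and 22 to the left and grey points for rows with no count in unirradiated blood, where the fitted value is no bound. The dashed line is the median of all 576 rows, 1.85, and 25 rows lie to its right. With library totals 11 of the 22 rows on the left turned to higher in lung.

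The rows are given next by list, beside 49.7% of all rows higher in lung, 25.3% lower and a median log2 fold change of 1.85. Differences between lists were not tested, and dme-miR-10-3p is in both the first and the fourth list. Of 17 conserved relatives tested, 8 were higher in lung, 3 lower and the others not called, with a median log2 fold change of 1.69, or 1.34 with rows at 0 set at their bound. With library totals 14 were higher and 1 lower. bta-miR-26c was among those not called (-0.23 ± 0.29, adjusted p = 0.484), as were hsa-miR-148a-3p (-0.39 ± 0.36) and eca-miR-1271 (-0.61 ± 0.63), while hsa-miR-148a-5p, the other arm of miR-148a, was lower in lung (-2.56 ± 0.44). mmu-miR-1247-5p had 2 counts in blood and 335 in lung, a ratio of 34.4 with a 95% exact counting interval of 9.46 to 286. ppy-miR-151b was higher in lung (3.77 ± 0.39), as was the miRNA it followed, rno-miR-28-3p (3.73). mmu-miR-744-5p was lower in lung (-2.46 ± 0.38), but not with library totals (0.31).

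Of the 5 opposite-strand names tested, 0 were higher in lung and 4 lower, with a median of -2.26, though with library totals hsa-miR-103b (0.39) and hsa-miR-3184-3p (0.94) turned to positive values and the list had 2 higher and 2 lower. Beside them stand their partners, with -1.82 for rno-miR-103-3p beside -2.26 ± 0.30 for hsa-miR-103b and -1.63 for rno-miR-423-5p beside -1.86 ± 0.32 for hsa-miR-3184-3p. Of 15 names related to ribosomal, transfer or small nucleolar RNA or repeats, 3 were higher and 6 lower (median -0.68), and with library totals 10 higher and 2 lower. bta-miR-2478 was higher in lung (2.77 ± 0.43), and cgr-miR-1285 (-4.26 ± 0.53), hsa-miR-1303 (-3.03 ± 0.57) and mmu-miR-6240 (-1.48 ± 0.51, but 1.22 with library totals) were lower. cgr-miR-1260 (-0.34 ± 0.48), mmu-miR-5115 (0.36 ± 0.68), hsa-miR-1273g-3p (-0.47 ± 0.81), hsa-miR-4454 (-0.65 ± 0.49) and mmu-miR-5109 (-1.26 ± 0.73) were not called. Of 6 invertebrate or virus names tested, 6 were higher and 0 lower with library totals, and 5 higher and 0 lower under the main scaling (median 3.43), among these hco-miR-5978 (1.19 ± 0.44) and dme-miR-10-3p, with 2 counts in blood and 210 in lung, a ratio of 21.6 with a counting interval of 5.90 to 179. hcmv-miR-US25-1-3p had 1 count in blood and 262 in lung, a ratio of 53.9 (9.59 to 2136). These are names given to reads by sequence similarity and do not say that the named organism was there. Of the 30 other rows 13 were higher and 9 lower (23 and 4 with library totals), bta-miR-3600 among the first (2.23 ± 0.24, beside 2.25 for rno-miR-22-3p) and bta-miR-3596 among the second (-2.38 ± 0.28, but 0.29 with library totals, beside -1.79 for rno-let-7b-5p).

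The second comparison asked whether irradiation changed the homolog rows. Irradiated rats at 1 and 2 weeks were set against 0 Gy at 1 week, and those at 3 and 4 weeks against 0 Gy at 4 weeks. edgeR called 0 of the homolog rows in each of the 12 comparisons within a tissue, with 37 rows tested of 289 in blood and 61 of 499 in lung. Among all rows it called 0 to 1.04% in blood and 0% in lung. The edgeR shares in blood were 0.346% at 1 week, at 2 weeks and between the control weeks, 0% at 3 and 4 weeks and 1.04% over all weeks. DESeq2, run as an alternative, called 0 homolog rows in blood, where it called 2.08, 1.04, 1.38 and 1.38% of all rows at weeks 1 to 4, 4.5% over all weeks and 0.692% between the control weeks. In lung it called 1 homolog row at 1 week (1.2% of all rows), 0 at 2 weeks (1.2%), 1 at 3 weeks (0.802%), 1 at 4 weeks (2%), 1 over all weeks (1.2%) and 0 between the control weeks (1.2%). The share of counts held by the 115 rows was not shown to change either, with a log2 difference of 0.46 in blood (permutation p = 0.197) and 0.05 in lung (permutation p = 0.753), both 0.753 after adjustment over 4 tests. p-values here measure the spread between pools of rats.

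In lung 1 week after 15 Gy, 18 of the 61 homolog rows tested had an unadjusted p under 0.05, 12 higher and 6 lower, where 10.4% of all 499 rows did, 6.41% higher and 4.01% lower. hsa-miR-3184-3p had 262, 345 and 215 CPM at 0 Gy and 1023, 641 and 749 at 15 Gy, on the scale of the lung libraries. The groups did not overlap, but the control value of 215 CPM was only 4 counts in the library of 11621 counts. The log2 fold change was 1.53 ± 0.34 (SE, edgeR adjusted p = 0.0774). rno-miR-423-5p, which it followed, had 1.47 ± 0.31 (adjusted p = 0.0774). At 0 Gy 4 weeks hsa-miR-3184-3p had 348, 646 and 591 CPM, a range that met that of the irradiated libraries. DESeq2 called this row (1.39, adjusted p = 0.0266).

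hsa-miR-4286 had 1, 2 and 0 counts in lung at 0 Gy 1 week and 26, 11 and 28 counts at 15 Gy 1 week. The ratio was 17.5 with a 95% exact counting interval of 5.72 to 86.9, which covers counting error only (edgeR adjusted p = 0.0904). At 0 Gy 4 weeks it had 7, 1 and 1 counts, and the irradiated libraries of weeks 2 to 4 had 0 to 6, so the 3 libraries of 15 Gy at 1 week stood above all others. With both 0 Gy groups as controls it was called (log2 fold change 4.01, adjusted p = 0.0198).

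mmu-miR-6240, a name related to ribosomal RNA, had 6, 3 and 0 counts at 0 Gy 1 week and 46, 5 and 25 at 15 Gy 1 week (log2 fold change 2.72 ± 0.65, adjusted p = 0.0904). The 0 Gy libraries of 4 weeks had 32, 49 and 10 counts, and the controls themselves differed by 2.27 ± 0.64 between weeks 4 and 1, as a difference that was not called. hsa-miR-3607-5p, a name related to a small nucleolar RNA, had 15, 14 and 0 counts at 0 Gy 1 week and 0 in all 3 libraries of 15 Gy 1 week, at least 12.0-fold lower with the irradiated group set at 3 counts. At 0 Gy 4 weeks it had 7, 1 and 1 counts. When the new loci were left out of the table, which also left fewer rows to adjust over (303), 6 homolog rows were called at 1 week: hsa-miR-4286, mmu-miR-6240, hsa-miR-3184-3p and bta-miR-2898 higher and hsa-miR-3607-5p and hsa-miR-4448 lower.

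At 2 weeks in lung 8 homolog rows had an unadjusted p under 0.05, all higher, where 5.21% of all rows did, 4.81% higher and 0.401% lower. mmu-miR-6240 (2.33 ± 0.66, adjusted p = 0.703) and oan-miR-1386 (1.65 ± 0.58) had the smallest p. At 3 weeks the number was 7, 4 higher and 3 lower, beside 7.82% of all rows (2.4% higher, 5.41% lower), with gga-miR-3535 (-2.01 ± 0.76, adjusted p = 0.574) and ppy-miR-151b (-1.50 ± 0.58) first. At 4 weeks it was 5, 1 higher and 4 lower, beside 9.62% (4.01% higher, 5.61% lower), with gga-miR-3535 (-1.99 ± 0.68, adjusted p = 0.453) and dme-miR-10-3p (-1.89 ± 0.75) first. Between the control weeks 8 rows had an unadjusted p under 0.05, 6 higher and 2 lower at 4 weeks, beside 7.21% of all rows (5.61% higher, 1.6% lower), with mmu-miR-6240 and mmu-miR-6239 first. dme-miR-10-3p (1.85 ± 0.83) and ppy-miR-151b (1.36 ± 0.57) were among those higher in the 4-week controls, while gga-miR-3535 had 0.33 ± 0.69. Against all controls, over all weeks, dme-miR-10-3p had -0.58 ± 0.48 and ppy-miR-151b -0.58 ± 0.34.

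Over all weeks in lung 12 rows had an unadjusted p under 0.05, 8 higher and 4 lower, beside 9.02% of all rows (5.61% higher, 3.41% lower). gga-miR-3535, a chicken name, had 28.9, 25.7 and 53.8 CPM at 0 Gy 1 week and 27.1, 15.95 and 70.7 at 0 Gy 4 weeks, against 10.5, 14.7 and 5.73 CPM at 15 Gy 1 week and 9.99, 9.53 and 7.93 at 15 Gy 4 weeks. The 53.8 CPM was 1 count in the library of 11621 counts. At 15 Gy 2 weeks gga-miR-3535 had 6.23, 32.6 and 14.1 CPM, which met the control range. At 15 Gy 3 weeks, where 1 library held only 8132 counts, its log2 fold change was -2.01 ± 0.76. Its log2 fold change over all weeks was -1.58 ± 0.41 (adjusted p = 0.355). oan-miR-1386, a platypus name, had 0 to 43.3 CPM in the control libraries and 0 to 93.2 in the irradiated ones (1.24 ± 0.35), with the 0 in both from a library of very low depth.

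**Figure D5:**
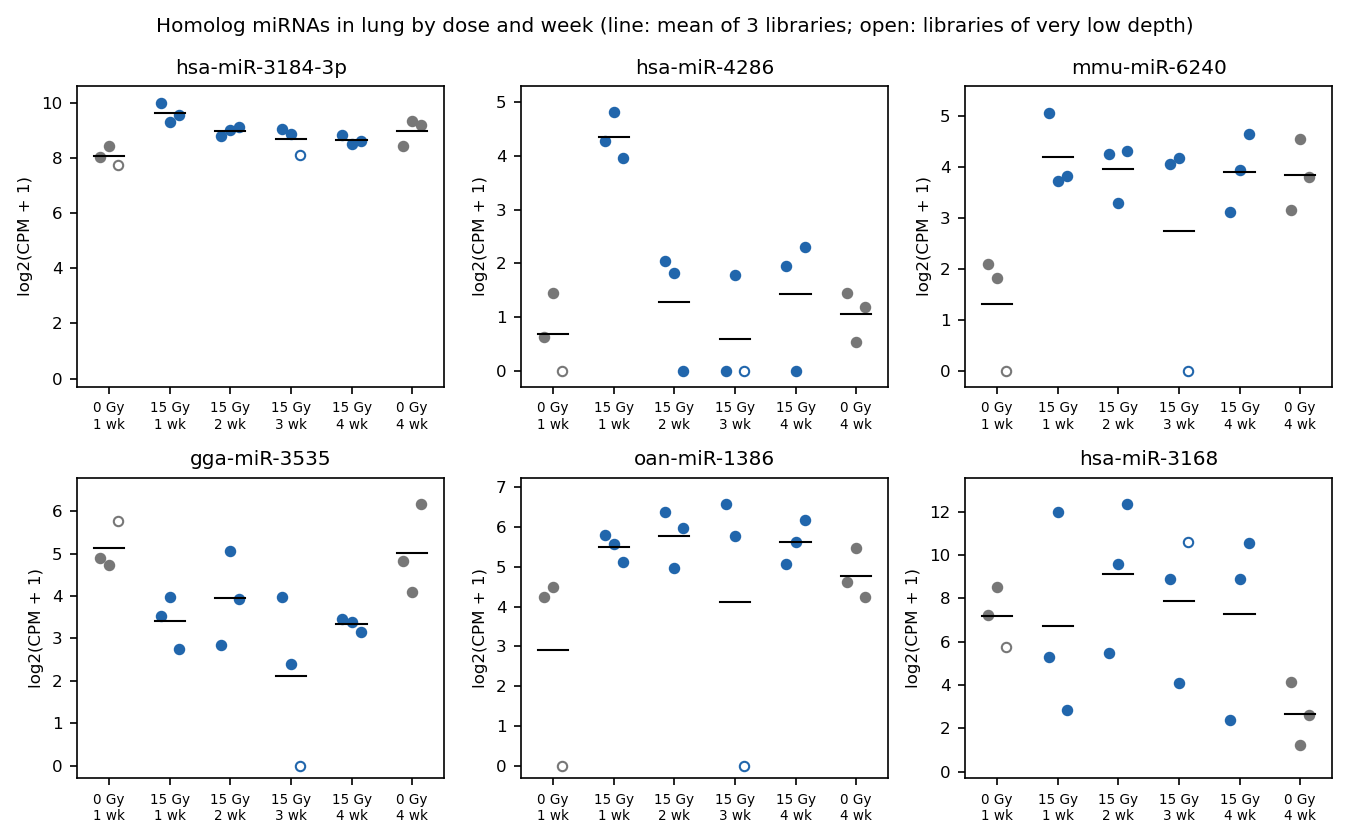
Levels in lung of 6 homolog rows as log2(CPM + 1) (vertical) by dose and week (horizontal), each point a library, each line the mean of 3 libraries, grey for 0 Gy, blue for 15 Gy and open for the 2 libraries of very low depth. hsa-miR-4286 stands above all other groups at 15 Gy 1 week, mmu-miR-6240 has its lowest mean at 0 Gy 1 week, and hsa-miR-3168 spreads widely within groups.

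hsa-miR-3168 was the row DESeq2 called in lung at 3 weeks (log2 fold change 6.43, adjusted p = 0.0192), at 4 weeks (6.53, adjusted p = 0.00629) and over all weeks (4.74, adjusted p = 0.000616), and edgeR called it in none of these. Its counts were 68, 3 and 4 at 0 Gy 4 weeks but 275, 424 and 1 at 0 Gy 1 week. At 15 Gy they were 54, 1661 and 12 after 1 week, 69, 609 and 1121 after 2, 508, 27 and 11 after 3 and 9, 392 and 372 after 4. In CPM the irradiated groups of 3 and 4 weeks overlapped with 0 Gy 4 weeks (1.37 to 16.8 CPM), with 16.3 to 1537 and 4.28 to 1475 CPM. In the 8 shallower lung libraries of ordinary depth (239592 to 1491401 counts) it had 38.0 to 5280 CPM (median 616), and in the 8 deeper ones 1.37 to 150 (median 11.3). The part of depth in these calls was not tested.

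In blood 0 homolog rows had an unadjusted p under 0.05 at 1 week, where 6.23% of all 289 rows did. At 2 weeks there were 4, all lower, beside 11.8% of all rows (4.5% higher, 7.27% lower). At 3 weeks there were 3, 1 higher and 2 lower, beside 14.9% (5.88% higher, 9% lower), and at 4 weeks 1, higher, beside 7.61% (4.15% higher, 3.46% lower). Over all weeks there were 6, 1 higher and 5 lower, beside 16.3% (5.88% higher, 10.4% lower), and between the control weeks 1, higher at 4 weeks, beside 4.15% (3.11% higher, 1.04% lower). At 1 week gga-miR-1766 (-1.74) and mmu-miR-5115 (2.00) had the smallest p. At 2 weeks mmu-miR-5100 had 14, 9 and 2 counts in control blood and 3, 3 and 6 in irradiated blood (-1.67 ± 0.51, adjusted p = 0.218), and mmu-miR-744-5p had 31.5, 24.8 and 60.8 CPM against 15.3, 13.6 and 20.7 (-1.23 ± 0.40). The groups of mmu-miR-744-5p did not overlap, but with library totals as the scale its log2 fold change was 0.058.

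At 3 weeks in blood hsa-miR-3184-3p had 200.1, 134 and 429 CPM in control libraries and 108, 119 and 80.8 in irradiated ones (-1.31 ± 0.47, adjusted p = 0.319). On this TMM scale the groups did not overlap, and the direction was opposite to that in lung at 1 week. With library totals as the scale the groups overlapped. eca-miR-1271 had 37.2, 13.4 and 12.2 CPM against 4.04, 4.75 and 5.28 (-2.14 ± 0.80), and its 0 Gy libraries of 1 week, 3.65, 3.10 and 11.5 CPM, lay lower than those of 4 weeks (1.85 ± 0.81 between control weeks). hsa-miR-103b had 214 to 276 CPM in the 6 control libraries and 255 to 494 in the 12 irradiated ones, with a log2 fold change over all weeks of 0.42 ± 0.15 (adjusted p = 0.215) and of 0.61 ± 0.24 at 4 weeks (adjusted p = 0.637). None of these rows was called.

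The difference between the tissues in the response to irradiation was tested as an interaction over all 36 libraries. edgeR called 0 of 72 homolog rows (0.174% of all 576 rows), and 7 had an unadjusted p under 0.05. The signed change was more positive in lung than in blood for 6 of them and more negative for 1. Among all rows 12.3% were under that limit (5.9% more positive, 6.42% more negative). hsa-miR-3168 (4.76 ± 1.72, adjusted p = 0.283) and mmu-miR-6240 (1.69 ± 0.61, adjusted p = 0.283) had the smallest p, and DESeq2 called hsa-miR-3168 (5.46, adjusted p = 0.00945), with 3.47% of all rows called.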

How the data were processed

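Small RNA of rat blood and lung was sequenced from Illumina TruSeq libraries. Per the labels and the study's methods, the authors trimmed reads with Trim Galore 0.2.5, mapped them with Bowtie 1.1.1 to miRBase entries of rat and then of other species, removed reads of mRNA and other RNA classes, and called new loci on rn4. The deposited values are raw counts per miRNA row, not normalized. How reads that fit several entries were shared, and whether strand was used, is not given in the sources used here.

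Counts were fitted with edgeR 4.0.16 (R 4.3.3; filterByExpr, TMM, quasi-likelihood test, Benjamini-Hochberg over all rows tested, threshold 0.05), with 18 libraries per tissue or 36 for both. SE is the log2 fold change divided by the root of F. edgeR raises a p-value to that of a Poisson fit where the latter is larger, which it did in 55 of 732 tests of homolog rows. Those p-values are larger than the printed SE implies, and refitting without the bound changed the number of homolog rows called in 0 of 14 comparisons. DESeq2 1.42.0, RLE factors, library totals, no filter, a replicate block and sets without miR-486-5p, new loci or single libraries were alternatives. Scripts were tested on simulated data. Shares were compared by permutation (scipy 1.17.1), exact for 6 against 6 libraries and with 100000 resamples otherwise. Ratios used a pseudocount of 1 and rows with a mean of at least 10 counts. Intervals and floors of 3 counts cover counting error only.

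Rows named are the 10 most abundant per tissue, those called (up to 5 each way by fold in lung against blood) or else the 2 with the smallest p, list members with a mean of at least 10 counts, and the 5 closest pairs, others being chosen after their values were seen. The members and lists were chosen with earlier results of these data known. Same-numbered libraries of different groups correlated at a median of 0.0658 in blood (-0.229 to 0.446) and 0.0570 in lung. Libraries of other numbers had medians of -0.0173 and -0.0362. Blood with lung of the same dose and week had -0.0182 for the same number and -0.00552 for other numbers. Whether the numbers pair libraries, or blood and lung came from the same rats, was not tested.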

Additional observations from a re-analysis of the deposited data

Results flagged for a closer look

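In unirradiated rats 3 of 22 values tested had a library far from the other 5 of its tissue, where chance flags about 1 in 20. hsa-miR-16-2-3p had 24.1 CPM in lung 0 Gy 1 week replicate 3 against 1.63 to 7.19 in the others, which is 1 count in a library of 11621. mmu-miR-466i-5p had 78.1 CPM in blood 0 Gy 4 weeks replicate 3, from 72 counts, against 12.7 to 25.3 in the others. The share of counts held by the 115 rows was 1.66% in lung 0 Gy 4 weeks replicate 3 against 4.79 to 6.25% in the others.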

How the results depend on the processing

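The number of homolog rows called in lung against blood was 50, and 44 to 50 with one library left out. The calls after irradiation stayed at 0 with each library left out in turn, without the 2 blood libraries in doubt and with the replicate block, which gave 47 calls (27 higher, 20 lower) in lung against blood. In lung at 1 week DESeq2 called 1 row, the table without new loci 6 and pooled controls 1. DESeq2 called 1 row each in lung at 3 weeks, at 4 weeks, over all weeks and in the interaction. The cause of these differences was not tested. The share in lung against blood, a log2 difference of 2.91, was 2.70 to 3.20 with one library left out and -0.71 without miR-486-5p. mmu-miR-744-5p in blood at 2 weeks turned from -1.23 to 0.058 with library totals. Refits without edgeR's Poisson bound, chosen after seeing the data, left each count of calls as it was. Blood held as few as 70470 counts besides miR-486-5p, which limits rows below about 10 counts.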
